A study of Mus musculus with 2 samples.

Results

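Ribosome biogenesis in K-Ras-activated mouse lung cancer cells was examined through 37 genes, all of which were found by symbol among the 23183 genes of the deposited tables. They encode nucleolar processing factors, the proteins of small nucleolar ribonucleoproteins (snoRNPs), and subunits and factors of RNA polymerase I. mRNA was sequenced in 2 libraries, 1 of KPR- cells and 1 of KPRrestored cells. KPR- is an immortalized line from a lung tumour of mice with the alleles *Runx3* flox/FSF, *K-Ras* LSL-G12D and *p53* flox/flox, a Tomato reporter and the tamoxifen-activated recombinase FlpERT2. Cre from an adenovirus with the *CMV* promoter had switched on *K-Ras* and removed *p53* and the floxed *Runx3* allele, so both libraries share these changes. In KPR- cells a *Frt-Stop-Frt* cassette (FSF) keeps the other *Runx3* allele off, and 4-hydroxytamoxifen (4-OHT) removes it to give KPRrestored cells. The sample records give the *Runx3* genotype as -/- at 0 h and -/+ at 16 h, and list 1 μM 4-OHT for both libraries. Whether the line is 1 clone is not stated in the sources used here. With 1 library per condition no difference has a replicate check, and restoration, 4-OHT and hours in culture cannot be told apart.

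RNA polymerase I transcribes the long precursor of the ribosomal RNAs (rRNAs) in the nucleolus. Box C/D snoRNPs methylate and box H/ACA snoRNPs pseudouridylate that precursor, while large assemblies of processing factors fold and cut it into the RNAs of the small and the large subunit. Cells that grow and divide quickly, among them many cancer cells, make ribosomes at a high rate, and MYC is a known activator of many of these genes. The rRNAs themselves were not measured, because the libraries were made from poly(A) RNA.

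The values are FPKM, fragments per kilobase of transcript scaled to the number of mapped fragments, so levels of different genes are compared per length. Differences are log2(FPKM + 0.005) in KPRrestored minus KPR-, and a gene is counted as higher or lower when the difference is 0.5 or more either way. Genes whose FPKM averaged 1 or more between the libraries are called expressed. The spacing of low FPKM values gave a depth of 21.9 M fragments in KPR-, and in KPRrestored it gave 22.45 M. The 95% intervals given with differences (exact Clopper-Pearson limits) come from fragments estimated with this depth and each gene's coding length. They cover counting error only and say nothing of the spread between cultures. *Runx3* itself had an FPKM of 0.348 in the library labelled KPR- and 0.349 in the library labelled KPRrestored, from about 8 fragments each, with an interval of -1.65 to 1.58. This gene thus cannot be used to check the labels, and all directions below compare the library labelled KPRrestored with the one labelled KPR-. All 6 epithelial markers were abundant in both libraries. *Krt8* (1711 and 1631 FPKM), *Krt18* (1931 and 1676 FPKM) and *Epcam* (105 and 91.6 FPKM) had less in KPRrestored, and *Krt19* (1015 and 1096 FPKM), *Cdh1* (119 and 130 FPKM) and *Cldn4* (107 and 202 FPKM) had more. Of 6 lung epithelial markers, 0 were expressed, and *Sftpc*, *Sftpb*, *Sftpa1*, *Scgb1a1* and *Napsa* were listed at 0 in both.

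The 3 members past the threshold of 0.5 are *Nop14*, *Heatr1* and *Utp20*, and *Ncl* had the most negative difference among the 4 abundant nucleolar proteins. The 250 bases before their RefSeq starts are shown because these are the genes the results turn on. RefSeq and GENCODE starts differ, and gene positions elsewhere in the text are those of GENCODE M21. The *Heatr1* window lies 98 to 347 bases inside the gene as GENCODE places it, whereas the other 3 windows lie before the GENCODE start. They are RefSeq sequences on GRCm38.p6, written 5′ to 3′ on the strand of the gene: chr5:34660149-34660398 (minus strand) for *Nop14*, chr13:12395125-12395374 (plus strand) for *Heatr1*, chr10:88826815-88827064 (minus strand) for *Utp20* and chr1:86359456-86359705 (minus strand) for *Ncl*. Capitals mark matches, on either strand, to the E-box CACGTG, the RUNX core TGTGGT, the ETS core CGGAAG or the NRF1 half-site GCGCA.
Nop14: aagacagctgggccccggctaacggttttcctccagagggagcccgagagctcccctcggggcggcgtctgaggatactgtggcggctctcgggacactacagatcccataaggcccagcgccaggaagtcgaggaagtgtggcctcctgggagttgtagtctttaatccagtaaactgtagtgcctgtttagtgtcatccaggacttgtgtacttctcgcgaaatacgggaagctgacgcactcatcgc
Heatr1: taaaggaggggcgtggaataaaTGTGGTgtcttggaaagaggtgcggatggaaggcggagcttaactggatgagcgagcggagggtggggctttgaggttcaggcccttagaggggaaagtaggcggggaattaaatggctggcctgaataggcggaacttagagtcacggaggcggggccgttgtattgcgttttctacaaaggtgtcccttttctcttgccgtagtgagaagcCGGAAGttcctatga
Utp20: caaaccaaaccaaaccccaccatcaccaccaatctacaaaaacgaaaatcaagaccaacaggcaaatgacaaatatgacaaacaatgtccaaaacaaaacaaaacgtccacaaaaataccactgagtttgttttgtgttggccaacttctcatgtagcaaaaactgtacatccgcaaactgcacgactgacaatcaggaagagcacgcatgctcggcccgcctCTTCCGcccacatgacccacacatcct
Ncl: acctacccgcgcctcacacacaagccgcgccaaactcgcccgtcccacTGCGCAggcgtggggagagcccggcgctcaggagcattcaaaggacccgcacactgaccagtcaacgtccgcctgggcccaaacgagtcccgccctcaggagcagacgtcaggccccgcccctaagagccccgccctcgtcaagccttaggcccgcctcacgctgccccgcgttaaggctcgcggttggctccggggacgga
The *Nop14* window holds 0 of the motifs. The *Heatr1* window holds a RUNX core and, next to the RefSeq start, an ETS core, both inside the gene by its GENCODE position. The *Utp20* window holds the reverse complement of the ETS core, and the capitals in the *Ncl* window are an NRF1 half-site read on both strands at overlapping bases. A match is a description of the letters and no evidence of binding.

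In all, the table of RefSeq promoters holds windows for 32 of the 37 genes and none for *Fbl*, *Npm1*, *Rrp12*, *Bop1* and *Rrs1*. For 14 of the 32, every window reaches into the gene as GENCODE places it. The RUNX core was found before the RefSeq start of 4 of the 32 (12.5%), *Heatr1*, *Nop56*, *Pes1* and *Taf1d*, against 12.6% of 8594 expressed genes in the table. The E-box was found before 2 of them (6.25%), *Nop2* and *Rrn3*, against 10.3% of the expressed genes. The ETS core was found before 13 (40.6%, against 30.7%), and the NRF1 half-site also before 13 (40.6%, against 50.4%). The 4 genes with a RUNX core had differences of -0.62 (*Heatr1*), 0.08 (*Nop56*), 0.11 (*Pes1*) and 0.05 (*Taf1d*), so they did not share a direction. The *Nop14* window holds 0 RUNX cores, as given above. Whether these letters bear on the difference of any gene was not tested.

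All 37 genes were expressed, and 36 averaged 10 FPKM or more. Together they made up 0.772% of the FPKM total in KPR- and 0.694% in KPRrestored, with sums of 4026 and 3635 FPKM. *Npm1* alone gave 37.2% and 36.4% of these sums. Their levels ran from 1496 FPKM for *Npm1* to 6.09 FPKM for *Polr1e* in KPR-, and from 1324 to 5.74 FPKM for the same genes in KPRrestored. In bulk RNA, fewer cells that use a gene and less of its RNA per cell cannot be told apart.

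**Figure D1:**
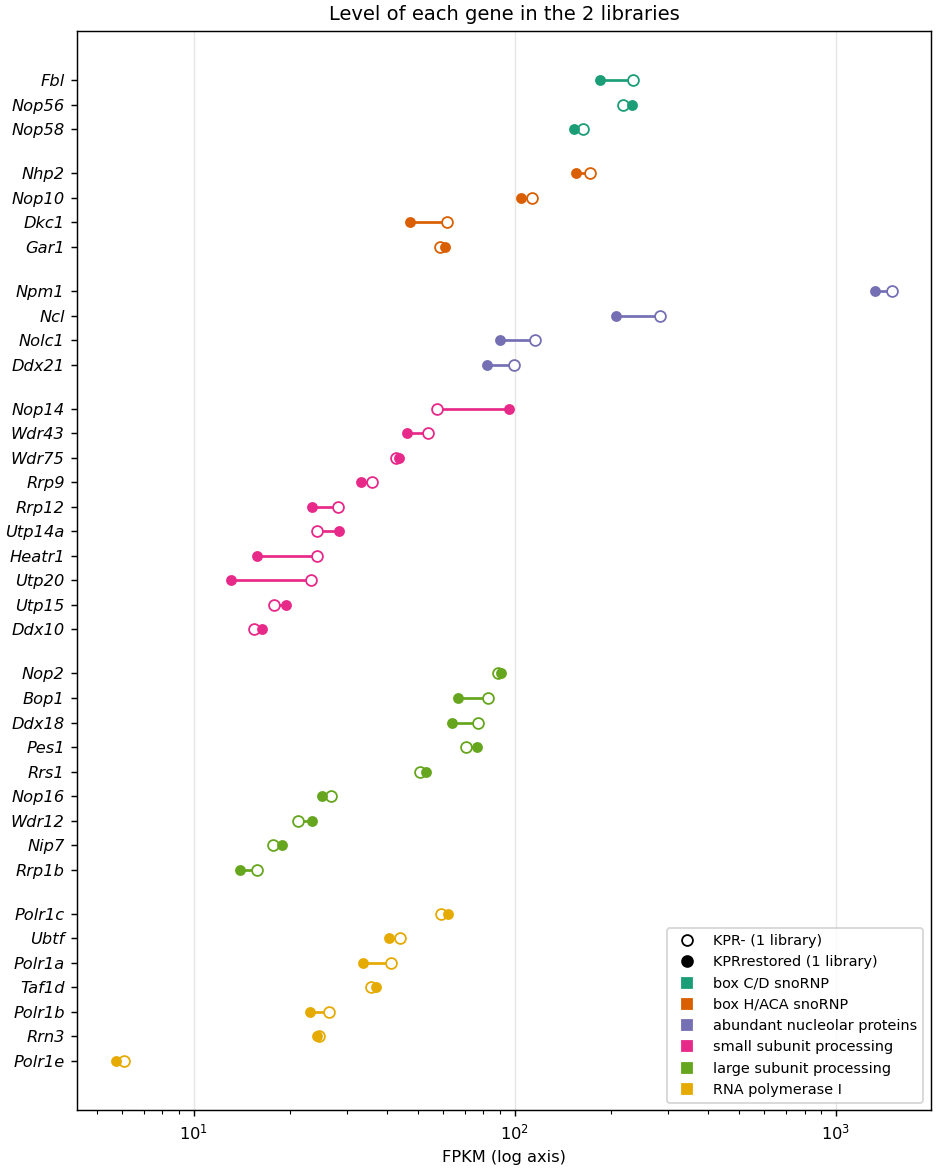
FPKM (log axis) of each of the 37 genes in the KPR- library (open circles) and the KPRrestored library (filled circles), coloured by role and sorted by level within each role. *Nop14* (57.5 to 95.9 FPKM), *Heatr1* (24.2 to 15.7 FPKM) and *Utp20* (23.3 to 13.1 FPKM) have the widest gaps, and most other pairs nearly touch.

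The 37 genes differed little between the libraries. Their median log2 difference was -0.11, with quartiles of -0.27 and 0.06, against a median of 0.0086 and quartiles of -0.23 and 0.27 over the 11231 expressed genes. A single member, *Nop14*, was higher by 0.5 or more (2.70% of the members), against 12.1% of all expressed genes. *Heatr1* and *Utp20* were lower by as much (5.41%), against 9.29% of all expressed genes. Of the 6725 genes that averaged 10 FPKM or more, as 36 of the members did, 626 were higher and 440 lower by 0.5 or more. In all, 23 members had a difference below 0 (62.2%), against 49.0% of all expressed genes.

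The members were more uneven at the smaller size of 0.25. Again *Nop14* alone was higher by 0.25 or more (2.70%), against 26.2% of the expressed genes and 23.0% of the 6725 genes that averaged 10 FPKM or more. By contrast, 11 members were lower by 0.25 or more (29.7%), against 23.7% and 21.3% of the same sets. These 11 were *Utp20*, *Heatr1*, *Ncl*, *Dkc1*, *Nolc1*, *Fbl*, *Bop1*, *Polr1a*, *Ddx21*, *Rrp12* and *Ddx18*. Of 20 reference genes, 0 were higher and 6 were lower by 0.25 or more. Of 42 other small-subunit factors, 8 were higher and 6 lower by as much. Of 50 other large-subunit factors, 8 were higher and 7 lower. With the trend of differences with coding length removed, 2 members were higher by 0.25 or more, *Nop14* and *Utp14a* (5.41%, against 24.9% of 10859 expressed coding genes). Then 8 were lower (21.6%, against 23.2%), without *Rrp12*, *Polr1a* and *Ddx21*. By counting error alone, the interval lay below 0 for 19 members, above 0 for 4 (*Nop14*, *Utp14a*, *Pes1* and *Nop56*) and held 0 for 14. Among the 10856 expressed genes with such an interval, it lay below 0 for 26.4% and above 0 for 26.5%, and among the 6597 of them that averaged 10 FPKM or more, for 31.2% and 30.3%.

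**Figure D2:**
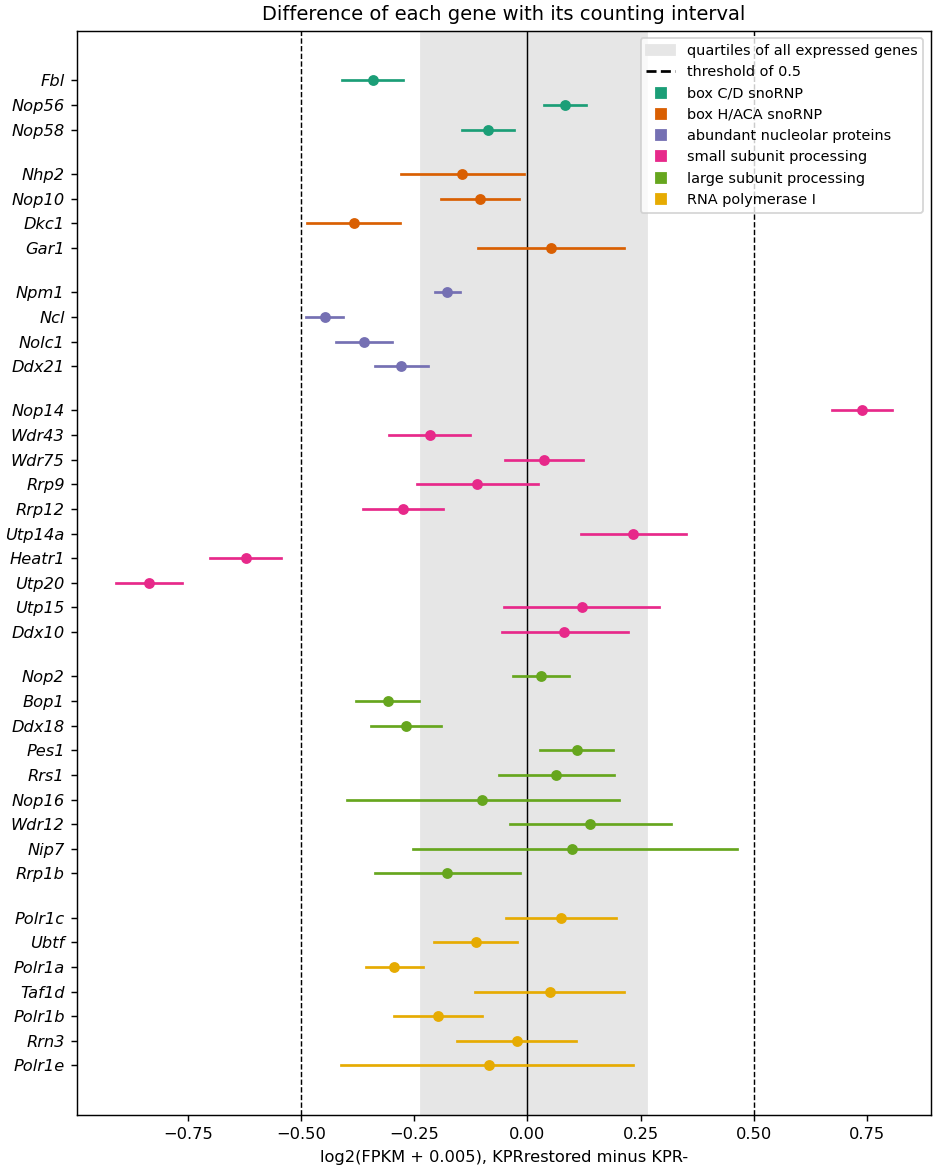
Difference in log2(FPKM + 0.005), KPRrestored minus KPR-, of each gene (points) with its 95% counting interval (lines), coloured by role. The shaded band runs between the quartiles of all expressed genes, -0.23 to 0.27, and dashed lines mark 0.5 either way, which *Nop14* passes on the right and *Heatr1* and *Utp20* on the left.

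The abundant nucleolar proteins were the role group with the lowest median, -0.32 over 4 genes, and all 4 had differences below 0. The group's name does not rank RNA levels. *Fbl*, *Nop56*, *Nop58* and *Nhp2*, of other groups, had more FPKM than its members *Nolc1* and *Ddx21* in both libraries. Nucleolin, encoded by *Ncl* (chr1:86344719-86359400, minus strand, 14 exons), binds pre-rRNA and had 283 FPKM in KPR- and 207 FPKM in KPRrestored. Its difference was -0.45 with an interval of -0.49 to -0.41, a change of -26.7% in FPKM. *Npm1* (chr11:33152287-33163206, minus strand) encodes nucleophosmin, a chaperone of ribosome assembly, and had 1496 and 1324 FPKM, a difference of -0.18 (interval -0.20 to -0.15). It was the most abundant of the 37 in both libraries, and 5 annotated pseudogenes match it at 95% identity or more over at least 200 bases, so its value may include or lack fragments of such copies. *Nolc1*, whose product accompanies snoRNPs, had 115 and 89.9 FPKM, a difference of -0.36. *Ddx21*, an RNA helicase of the nucleolus, had 99.6 and 82.1 FPKM, a difference of -0.28. It has 1 annotated pseudogene with the same identity.

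The box C/D snoRNP proteins did not move together. *Fbl* (chr7:28169710-28179269, plus strand) encodes fibrillarin, the methyltransferase of the particle, and had 234 FPKM in KPR- and 185 FPKM in KPRrestored. Its difference was -0.34, with an interval of -0.41 to -0.27. *Nop56* and *Nop58* encode the paired scaffold proteins of the same particle. *Nop56* had 218 and 231 FPKM, a difference of 0.08 (interval 0.04 to 0.13), and *Nop58* had 163 and 154 FPKM, a difference of -0.09 (interval -0.14 to -0.03). Per length, *Fbl* was above *Nop56* in KPR- and below it in KPRrestored. Annotated pseudogenes with the same identity number 5 for *Nop56* and 1 for *Fbl*, so the order of these genes may be affected by fragments of such copies.

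Of the box H/ACA proteins, *Dkc1* had a difference below those of its partners. *Dkc1* (chrX:75095854-75109777, plus strand) encodes dyskerin, the pseudouridine synthase of the particle, which is also part of telomerase. It had 61.8 FPKM in KPR- and 47.4 FPKM in KPRrestored, a difference of -0.38 with an interval of -0.49 to -0.28. The levels of the core proteins *Nhp2* (171 and 155 FPKM), *Nop10* (113 and 105 FPKM) and *Gar1* (58.6 and 60.8 FPKM) stood closer to each other between the libraries. Their differences were -0.14, -0.11 and 0.05. With the coding length trend removed, the values were -0.43 for *Dkc1*, -0.21 for *Nhp2*, -0.20 for *Nop10* and -0.01 for *Gar1*. The interval of *Gar1*, -0.11 to 0.21, held 0.

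The small-subunit processing factors held all 3 members past the threshold and had a median of -0.04 over 10 genes. *Nop14* (chr5:34638536-34660148, minus strand, 18 exons) encodes a factor needed for small-subunit assembly and had 57.5 FPKM in KPR- and 95.9 FPKM in KPRrestored. About 2981 and 5100 fragments stood behind these values, and the difference was 0.74 with an interval of 0.67 to 0.80, 66.9% more FPKM. In order of level it went from place 17 of the 37 in KPR- to place 8 in KPRrestored, the largest change of place among the members. An antisense gene on the opposite strand shares 144 exon bases with it (5.27% of its exon bases), and whether the authors' quantification used strand is not stated in the sources used here.

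*Utp20* (chr10:88746607-88826804, minus strand, 62 exons) encodes a very large scaffold protein of the small-subunit precursor. It had 23.3 FPKM in KPR- and 13.1 FPKM in KPRrestored, from about 4159 and 2390 fragments, a difference of -0.83 with an interval of -0.91 to -0.76. *Heatr1* (chr13:12395027-12440289, plus strand, 45 exons), a long protein of HEAT repeats that takes part in both processing and RNA polymerase I transcription, had 24.2 and 15.7 FPKM. Its difference was -0.62, with an interval of -0.70 to -0.54. Over all genes, differences were more negative the longer the coding sequence, and with that trend removed the difference of *Heatr1* was -0.37 and no longer past the threshold, while that of *Utp20* was -0.53. *Heatr1* shares 155 exon bases with *Lgals8* on the opposite strand, which had 13.4 and 19.0 FPKM.

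*Heatr1* belongs with *Wdr43*, *Wdr75* and *Utp15* to the part of the small-subunit processome that binds the precursor first, and these 4 genes did not share a direction. *Wdr43* had 53.6 and 46.1 FPKM, a difference of -0.22 (interval -0.31 to -0.13). *Wdr75* had 42.6 and 43.7 FPKM and *Utp15* had 17.8 and 19.4 FPKM, with differences of 0.04 and 0.12 whose intervals held 0. *Utp14a*, an essential cofactor of the processome, had 24.2 and 28.5 FPKM, a difference of 0.23 (interval 0.12 to 0.35), the next most positive of all members after *Nop14*. It shares 473 exon bases (11.5%) with a long noncoding RNA gene on the opposite strand. Of the other 3, *Rrp12*, which takes part in the export of pre-ribosomes, had 28.2 and 23.3 FPKM, a difference of -0.27. *Rrp9*, which binds the snoRNA of the processome, had 35.9 and 33.2 FPKM (-0.11), and the helicase gene *Ddx10* had 15.4 and 16.3 FPKM (0.08), both with intervals that held 0.

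The large-subunit factors had a median of 0.03 over 9 genes, with differences from -0.31 to 0.14 and 0 genes past 0.5. *Pes1*, *Bop1* and *Wdr12* encode the 3 proteins of the PeBoW complex, which is needed for the RNAs of the large subunit. *Bop1* (chr15:76452989-76477277, minus strand) had 82.8 FPKM in KPR- and 66.8 FPKM in KPRrestored, a difference of -0.31 with an interval of -0.38 to -0.24. *Pes1* had 70.7 and 76.2 FPKM, a difference of 0.11 (interval 0.03 to 0.19), and *Wdr12* had 21.2 and 23.3 FPKM, a difference of 0.14 (interval -0.04 to 0.32). Thus *Bop1* was the more abundant of *Bop1* and *Pes1* in KPR- and the less abundant in KPRrestored. The helicase gene *Ddx18* had 76.9 and 63.9 FPKM, a difference of -0.27 (interval -0.34 to -0.19). Annotated pseudogenes at 95% identity or more over at least 200 bases number 2 for *Pes1*, 1 for *Wdr12* and 3 for *Ddx18*. The values of these genes, and so the order of *Bop1* and *Pes1*, may be affected by fragments of such copies.

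Of the remaining large-subunit factors, *Nop2*, *Rrs1*, *Nop16* and *Nip7* stayed close to 0. *Nop2*, an rRNA methyltransferase gene, had 89.0 and 90.9 FPKM (0.03), and *Rrs1*, an assembly factor gene with a single exon, had 50.9 and 53.1 FPKM (0.06). *Nop16* had 26.9 and 25.05 FPKM (-0.10) and *Nip7* had 17.7 and 18.9 FPKM (0.10). The intervals of these 4 genes held 0, and those of *Nip7* (-0.25 to 0.46) and *Nop16* (-0.40 to 0.20) were among the widest, from about 127 to 190 fragments per library. *Rrp1b* had 15.8 and 14.0 FPKM, a difference of -0.18 (interval -0.34 to -0.02).

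The 7 RNA polymerase I genes had a median of -0.09, with 0 genes past 0.5. *Polr1a* (chr6:71909053-71984935, plus strand, 34 exons) and *Polr1b* (chr2:129100995-129126594, plus strand, 15 exons) encode the largest and the second-largest subunit, which form the catalytic centre. *Polr1a* had 41.3 FPKM in KPR- and 33.6 FPKM in KPRrestored, a difference of -0.29 (interval -0.36 to -0.23). *Polr1b* had 26.4 and 23.0 FPKM, a difference of -0.20 (interval -0.29 to -0.10). With the coding length trend removed both were at -0.10. *Polr1c*, whose product RNA polymerase III also uses, had 58.9 and 62.0 FPKM (0.07), and *Polr1e*, a subunit gene at the lowest level of all members, had 6.09 and 5.74 FPKM (-0.09). The intervals of the latter pair held 0.

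The initiation factors of RNA polymerase I differed by little. *Ubtf* (chr11:102304560-102319742, minus strand) encodes the upstream binding factor that coats rRNA genes and had 43.8 FPKM in KPR- and 40.5 FPKM in KPRrestored, a difference of -0.11 (interval -0.21 to -0.02). *Rrn3* encodes the factor through which growth signals reach the polymerase and had 24.6 and 24.2 FPKM, a difference of -0.02 (interval -0.15 to 0.11). *Taf1d*, a subunit gene of the promoter selectivity factor, had 35.8 and 37.1 FPKM, a difference of 0.05 (interval -0.12 to 0.21). It has 1 annotated pseudogene at 95% identity or more over at least 200 bases. The intervals of *Rrn3* and *Taf1d* held 0, and that of *Ubtf* lay just below it.

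Other genes of the pathway were described from lists of general knowledge. Of 42 other small-subunit factors, 3 were higher and 1 was lower by 0.5 or more, with a median of -0.04. *Utp23* (7.33 and 11.7 FPKM, 0.68) and *Riok2* (19.0 and 30.2 FPKM, 0.67) had the largest positive differences, followed by *Utp3* (74.4 and 107 FPKM, 0.53), named because it is the remaining gene past the threshold. *Nat10* (25.9 and 18.0 FPKM, -0.53) and *Pwp2* (25.6 and 18.5 FPKM, -0.47) had the most negative. Of 50 other large-subunit factors, 2 were higher and 2 were lower, with a median of 0.0089. *Sbds* (37.7 and 62.7 FPKM, 0.73) and *Nmd3* (38.4 and 57.0 FPKM, 0.57), which act at late steps of large-subunit maturation and export, were higher. *Mdn1* (8.89 and 5.07 FPKM, -0.81) and *Urb1* (7.13 and 4.21 FPKM, -0.76) were lower. Over all expressed genes the shares were 12.1% higher and 9.29% lower.

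The 10 other RNA polymerase I genes had a median of 0.10, with 0 past the threshold. Over those that averaged 10 FPKM or more the median was 0.00087, and with the coding length trend removed it was 0.15 over the list. *Twistnb* and *Znrd1*, subunit genes, had 11.5 and 15.1 FPKM (0.40) and 20.8 and 24.7 FPKM (0.25), while *Cd3eap*, also a subunit gene, had 26.0 and 19.1 FPKM (-0.44) and *Polr1d* had 168 and 153 FPKM (-0.14). Of the 5 subunits that the 3 nuclear RNA polymerases share, 0 were past the threshold, with a median of -0.16. They ran from *Polr2l* (27.6 and 21.2 FPKM, -0.38) and *Polr2h* (38.7 and 31.4 FPKM, -0.30) to *Polr2k* (54.6 and 68.2 FPKM, 0.32). The 8 genes listed for RNA polymerase II had a median of -0.06. These 8 ran from *Polr2b* (47.4 and 40.4 FPKM, -0.23) and *Polr2i* (24.2 and 20.9 FPKM, -0.21) to *Polr2j* (95.7 and 99.9 FPKM, 0.06) and *Polr2g* (85.3 and 112 FPKM, 0.39). The 11 subunits of RNA polymerase III had a median of -0.08, and *Polr3gl* (3.78 and 5.86 FPKM, 0.63, interval -0.0068 to 1.249) was the 1 gene past the threshold. *Polr3c* had 22.0 and 25.5 FPKM (0.21), *Polr3g* 7.46 and 5.497 FPKM (-0.44) and *Polr3b* 10.3 and 7.80 FPKM (-0.40). The difference between the lists of the 3 polymerases has no test.

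The 14 genes of the RNA exosome, the nuclease complex that trims rRNA precursors, had a median of -0.03, with 0 past the threshold. They ran from *Exosc6* (42.5 and 33.8 FPKM, -0.33) and *Exosc2* (50.6 and 41.3 FPKM, -0.29) to *Exosc9* (24.2 and 29.9 FPKM, 0.30) and *Mphosph6* (20.5 and 27.2 FPKM, 0.41). The 79 cytosolic ribosomal protein genes, whose products are parts of the ribosome, had a median of 0.07. Of the 79, 63 had differences above 0, as had 5728 of the 11231 expressed genes. *Fau* (1458 and 1844 FPKM, 0.34) and *Rps12* (1869 and 2223 FPKM, 0.25) had the largest differences above 0 and *Rpl24* 665 and 620 FPKM (-0.10). *Rps27* was at -0.69 from 9.40 and 5.81 FPKM, with an interval of -1.67 to 0.22 and a level far under its family's. The medians of the members and of the ribosomal protein genes thus lay on opposite sides of 0. With the coding length trend removed the median of the ribosomal protein genes was -0.0015 and that of the members -0.13.

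**Figure D3:**
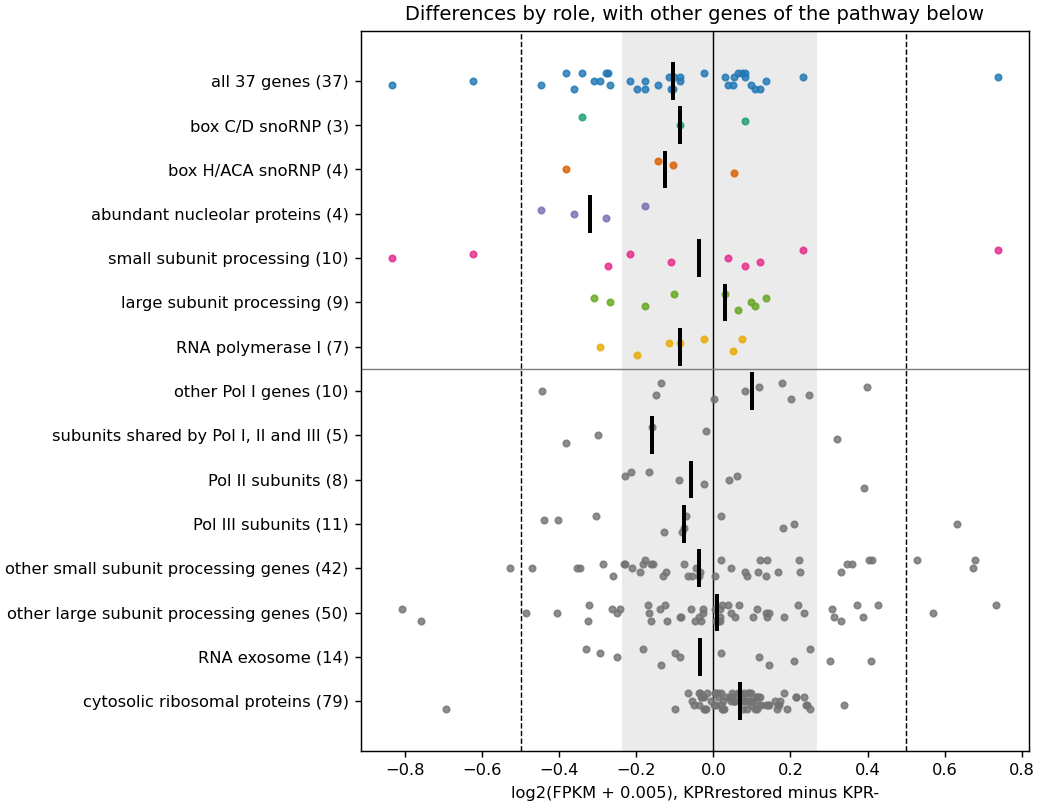
Differences in log2(FPKM + 0.005), KPRrestored minus KPR-, of the 37 genes together and by role (coloured points), and of the other gene lists (grey points), with the number of expressed genes in parentheses and the median as a black bar. The abundant nucleolar proteins have the lowest median (-0.32), and the ribosomal protein genes are packed closely around 0.07.

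*Myc*, which encodes an activator of many genes of ribosome production, had 73.6 FPKM in KPR- and 117 FPKM in KPRrestored, a difference of 0.67 (interval 0.59 to 0.75). *Mxd1*, *Mnt* and *Mxi1*, whose products compete with MYC for its partner MAX, had 3.43 and 7.78, 11.6 and 18.8, and 10.8 and 17.2 FPKM, with differences of 1.18, 0.69 and 0.67. *Max* itself had 31.6 and 31.4 FPKM (-0.01), and *Mycn* had 0.689 and 0.335 FPKM and was not expressed by the limit used here. *Myc* and the 3 competitors examined were thus each higher by 0.5 or more, as were 12.1% of all expressed genes. Other genes of the MXD family were not examined. The part of these genes in the members' values was not tested.

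Differences went with coding length over the whole tables, and this touches the long members. Over the 10859 expressed genes with a coding length, the median difference was 0.06 up to 1000 bases and -0.27 above 5000 bases, where 22.3% of 444 genes were lower by 0.5 or more. The Spearman correlation of difference and coding length was -0.18 over these genes and -0.30 over the 37 members, as a description across genes of the same 2 libraries. The 3 members with more than 5000 coding bases, *Polr1a* (5154 bases), *Heatr1* (6432 bases) and *Utp20* (8370 bases), had differences of -0.29, -0.62 and -0.83. With the trend removed, 1 member was lower by 0.5 or more, *Utp20*, against 8.48% of the 10859 genes. Of 254 genes within 1.2 times the coding length of *Heatr1*, 21.3% were lower by 0.5 or more and 12.2% were as low as *Heatr1*. Of 126 such genes for *Utp20*, 27.8% were lower by 0.5 or more and 7.14% were as low as *Utp20*.

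*Nop14*, *Ncl*, *Fbl* and *Dkc1* have coding lengths of 2583, 2124, 984 and 1530 bases, at which the trend is near 0. Of 1460 genes within 1.2 times the coding length of *Nop14*, 9.04% were higher by 0.5 or more and 3.70% were as high as *Nop14*. With the trend removed, the differences were 0.79 for *Nop14*, -0.44 for *Ncl*, -0.40 for *Fbl* and -0.43 for *Dkc1*. Whether RNA quality differed between the libraries was not tested.

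**Figure D4:**
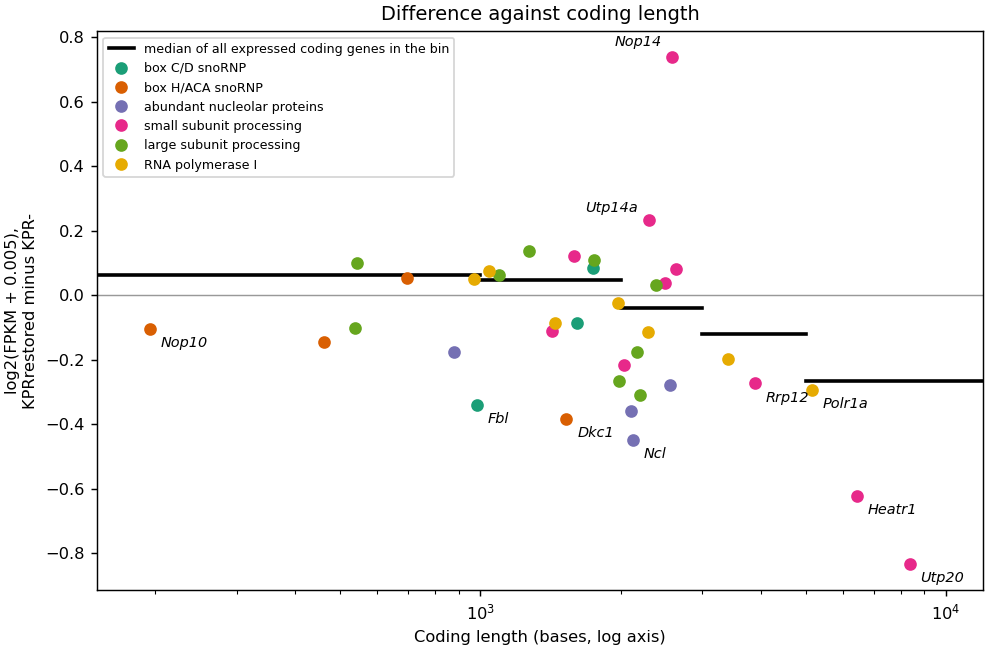
Difference in log2(FPKM + 0.005), KPRrestored minus KPR-, of each of the 37 genes against its coding length in bases (log axis), coloured by role. Black bars are medians of all expressed coding genes in bins of coding length, which go from 0.06 in the shortest bin to -0.27 in the longest, and *Heatr1* and *Utp20* lie below the bar of their bin.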

How the data were processed

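mRNA of 2 libraries, KPR- and KPRrestored, was examined from the deposited FPKM values. The authors selected poly(A) RNA, made directional paired-end libraries, removed adapters and low-quality reads, aligned the rest with TopHat, and took FPKM from Cufflinks. The paper also names a geometric normalization in EdgeR, and whether the deposited values carry it is not stated. If they do, the depths read from their spacing include that scaling. The build is mm10 per the labels, and versions and the annotation are not given in the sources used here. GENCODE M21 (GRCm38, the same build) gave positions and lengths, with 22110 symbols matched directly and 654 through a synonym. The members and lists were chosen with earlier results of these data known.

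Depth was set where estimated fragments of 4415 genes of a single transcript length, at a mean fragment length of 215 bases, lay nearest to whole numbers. Of genes with 0.5 to 5.5 estimated fragments, 76.1% (KPR-) and 78.1% (KPRrestored) were no more than 0.1 away from a whole number, against 20% expected of evenly spread values. Fragments use the longest coding sequence, a low estimate, and for *Nop10* the shortest coding transcript. The depth estimate was run on simulated libraries of known depth, and the intervals on counts drawn with counting error alone. Named genes were all members and, in each other list, the 2 most positive and 2 most negative differences in log2(FPKM + 1), with *Runx3*, *Myc* and snoRNA genes inside members. *Utp3*, *Mnt*, *Mxi1*, *Krt8*, *Krt19*, *Lgals8* and the lung epithelial markers at 0 were named outside this rule, with values known. Lists of markers were read as levels. Alternatives were other pseudocounts, scalings, filters and thresholds, and, added after the values were seen, removal of the coding length trend (lowess, span 0.3) and counts of members at 0.25 under these settings. The width of 1.2 times for genes of like coding length was also chosen with values known. Pseudogene matches were found using blastn. Tools were statsmodels 0.14.6, scipy 1.17.1, matplotlib 3.10.9, pandas 2.3.3 and numpy 2.4.6 under Python 3.11.15.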

Additional observations from a re-analysis of the deposited data

How the results depend on the processing

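No paired analysis was possible because each condition has 1 library, and for the same reason no library could be left out. Over all alternatives the median of the members ran from -0.14 to -0.09 and 22 to 25 members were below 0. With a threshold of 1, 0 members were higher and 0 were lower, and with a threshold of 0.25, 11 were lower. With the coding length trend removed, 1 member was lower by 0.5 or more (*Utp20*), 2 were higher and 8 lower by 0.25 or more, and the median of the ribosomal protein genes was -0.0015. Over all genes, 3193 were higher and 3002 lower with no filter on low values, 626 and 440 at a mean FPKM of at least 10, 325 and 155 with a threshold of 1, and 2944 and 2663 with a threshold of 0.25. These changes follow from how the filters and thresholds are built. The scalings shift all genes by the same amount and the pseudocounts are small beside most members' FPKM, so these settings leave little room for a move. Of the 222 values of single members under the alternatives, 214 moved by less than the counting interval's half-width, and 0 that were past the threshold changed sign. The other 8 were *Npm1* with libraries scaled to the same upper quartile (-0.21), and, with the length trend removed, *Npm1* (-0.23), *Nop10* (-0.20), *Heatr1* (-0.37), *Utp20* (-0.53), *Rrp12* (-0.15), *Polr1a* (-0.10) and *Polr1b* (-0.10). Removal of the length trend thus moved 7 of the 37 members. FPKM values are relative to the rest of the poly(A) RNA, so a shift common to all transcripts would not be seen.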

Other observations

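Within 6 of the 37 genes lie snoRNA genes on the same strand. GENCODE M21 places 24 of them there, 8 in *Taf1d*, 5 in *Nop56*, 4 in *Nop58*, 3 each in *Ncl* and *Wdr43* and 1 in *Dkc1*, with lengths of 68 to 137 bases. The deposited tables name 8 of these snoRNA genes. *Snord57* and *Snord110* in *Nop56*, *Snord70* and *Snord11* in *Nop58*, *Snord82* in *Ncl*, and *Snord53* and *Snord92* in *Wdr43* were listed at 0 in both libraries. *Snora75* in *Ncl* (133 bases) was listed at 0 in KPR- and at 27.6 FPKM in KPRrestored, with no fragment number or interval estimated. *Ncl* itself had 283 and 207 FPKM. All 24 are shorter than the mean fragment of 215 bases, and the libraries were made from poly(A) RNA. Values of 0 or 27.6 FPKM thus need not reflect the level of a snoRNA. Whether snoRNA levels differed was not tested.

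Among 20 reference genes, expressed in both libraries, the median difference was -0.02 and 1 gene was past the threshold, *Tfrc* (137 and 80.2 FPKM, -0.78). Over all expressed genes, 12.1% were higher and 9.29% lower by 0.5 or more. By 0.25 or more, 0 of the 20 were higher and 6 lower, against 26.2% and 23.7% of all expressed genes. *Gusb* was at -0.43 (36.5 and 27.0 FPKM), and *Psmb4* (221 and 250 FPKM) and *Rpl13a* (1122 and 1261 FPKM) were at 0.18 and 0.17. Of the other markers, *Col1a1* had 12.2 and 4.21 FPKM, *Cd68* 3.08 and 6.78 FPKM and *Kdr* 1.10 and 2.05 FPKM, and they were the single expressed genes of 6 fibroblast, 6 leukocyte and 5 endothelial markers.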
